A study of Mus musculus with 36 samples.

Results

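Nephron progenitors and stromal progenitors of the E11.5 mouse kidney were compared by RNA sequencing, as 4 NP and 4 SP samples of the 36 samples of the series. The samples were taken by their names. The other samples were ureteric bud (UB) cells titled E11.5, the 3 equivalent types from E12.5 kidneys, and 3 types derived from mouse embryonic stem (ES) cells, each also with 4 samples. Both E11.5 groups came from CD1 mice, with no allele or treatment given in the labels, and the embryonic kidneys of 1 litter were pooled for each sample, dissociated and sorted. The p-values below therefore measure the spread between litters. Cells were first gated as negative for CD31, a marker of endothelium, and for EpCAM and RET, which mark the UB. Among what remained, ITGA8 high, PDGFRA low cells were taken as NP and ITGA8 low, PDGFRA high cells as SP. The SP gate took only 1 dense part of the PDGFRA-positive cells, so that the group is not the whole stroma; kidneys were used fresh or after cold storage, which of the 2 for each sample is not given, and whether the NP and SP samples of 1 number came from the same litter is not stated.

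The mouse kidney starts when the ureteric bud grows out of the nephric duct into the metanephric mesenchyme. Mesenchyme cells that cap the bud tips are the nephron progenitors: they renew themselves under the homeobox factor Six2, send Gdnf to the bud and later turn into epithelium under Wnt signals. Around the caps lies the interstitial mesenchyme of stromal progenitors, marked by the forkhead factor Foxd1, which gives rise to fibroblasts, pericytes and smooth muscle, lays down matrix and supplies retinoic acid.

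The values were CPM (counts per M, the reads of a gene relative to all reads counted on genes) that the authors scaled between libraries, called normalised CPM here; they are not divided by gene length, so levels are compared between samples and not between genes. Every value was, within 0.01 of a read, a whole multiple of that of 1 read, which gave back the reads on genes: 24.0 to 30.3 M in the NP libraries and 26.5 to 43.1 M in the SP libraries. A level of 3 reads, taken as the limit of detection, corresponded to 0.101 to 0.128 normalised CPM in NP and 0.0729 to 0.119 in SP. On the log2(value + 1) scale, 75.2% of the variance over 13655 genes lay between NP and SP; the lowest correlation between libraries of a group was 0.962 and the highest between the groups 0.944. The SP libraries fell into pairs: the deviations of SP-1 and SP-2 from the group mean correlated at 0.56, those of SP-3 and SP-4 at 0.37, and those across the pairs between -0.85 and -0.55. Deviations from the mean of the same 4 libraries cancel for each gene, so that negative correlations are partly forced. These values cannot tell pairs from a gradient over the libraries. SP-4 also held the most globin RNA, and SP-1 and SP-2 the most RNA of *Isl1*, *Hoxa13* and *Hoxd13*; these values are given below beside the results they touch.

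Of the 22761 genes of the table, 13655 were at or above 1 normalised CPM in 4 or more of the 8 libraries. These were tested with limma on log2(value + 1), a scale that understates the change of low genes. A log2 fold change is given as NP minus SP, so that positive values are higher in NP, and genes count as called at an adjusted p-value below 0.05. 5891 genes (43.1% of those tested) were called, 2866 (21.0%) higher in NP and 3025 (22.2%) higher in SP, and in 5708 (41.8%) the 4 NP and the 4 SP libraries did not overlap. The side with more calls depended on the scaling: quantile normalisation gave 3586 higher in NP and 2683 higher in SP, and the removal of a trend with exon length 3911 and 2773. These shares are the background against which the counts of gene groups below are to be read. Small differences leaned to NP and large ones to SP: 2291 called genes were higher in NP by at most 1 on the log2 scale against 1709 in SP, whereas 575 called genes were higher in NP by more than 1 against 1316 in SP, 144 against 391 by more than 2, and 17 against 33 by more than 4. Over all 13655 genes the median log2 fold change was 0.03. In bulk RNA of sorted cells, more cells that express a gene and more RNA of it per cell cannot be told apart.

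**Figure D1:**
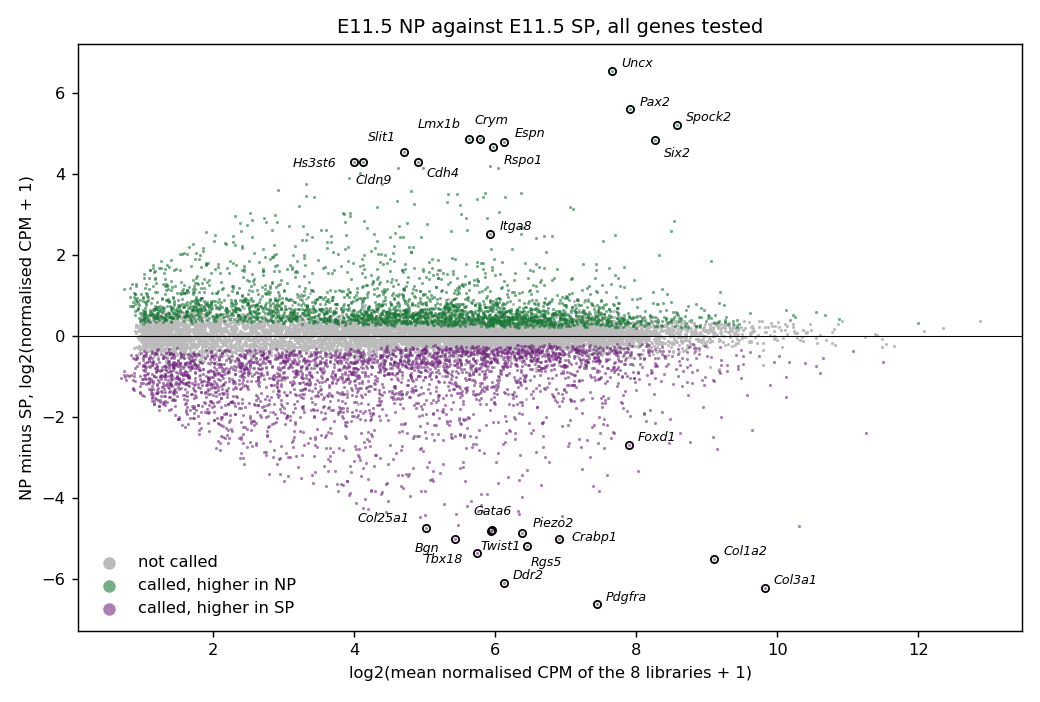
Each point is 1 of the 13655 genes tested, with log2 of its mean normalised CPM over the 8 libraries plus 1 on the x axis and the log2 fold change of NP against SP on the y axis; green points were called higher in NP, purple points higher in SP, and grey points were not called. Labelled circles are the 4 marker genes and the 12 genes with the largest called change in each direction, which reach 6.54 (*Uncx*) above and -6.62 (*Pdgfra*) below.

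The sort showed in its own genes. *Itga8* (ENSMUSG00000026768, chromosome 2, 12106632 to 12301922, minus strand; GRCm38 throughout), the integrin chain of the NP gate, was at 86.0, 98.6, 105 and 118 normalised CPM in NP-1 to NP-4 and at 14.5, 13.0, 15.3 and 28.1 in SP-1 to SP-4. Libraries are always given in the order 1 to 4. *Pdgfra* (ENSMUSG00000029231, chromosome 5, 75152292 to 75198215, plus strand), the receptor of the SP gate, was at 3.04, 2.32, 2.77 and 1.98 in NP and at 349, 350.5, 337 and 337 in SP. Both genes followed their gates in all 8 libraries, with log2 fold changes of 2.51 and -6.62; since the gates chose the cells, no test is drawn from them. *Six2* (ENSMUSG00000024134, chromosome 17, 85684277 to 85688274, minus strand), which holds the progenitors in self-renewal, was at 579, 557, 641 and 584 normalised CPM in the NP libraries and at 29.5, 21.1, 14.5 and 17.0 in the SP libraries, a mean of 590.2 ± 35.7 against 20.5 ± 6.59 (SD, n = 4 each). The groups lay far apart (log2 fold change 4.82, standard error 0.18, adjusted p = 1.6e-07), although the SP libraries were well above the limit of detection. *Foxd1* (ENSMUSG00000078302, chromosome 13, 98354242 to 98359305, plus strand) was at 92.9, 56.7, 57.1 and 44.3 normalised CPM in the NP libraries and at 265, 367, 447 and 563 in the SP libraries, a mean of 62.8 ± 20.9 against 410.4 ± 126 (SD, n = 4 each). Here too every SP library was above every NP library (log2 fold change -2.69, standard error 0.26, adjusted p = 3.4e-05), but the spread within groups was wider, NP-1 being the highest of its group and SP-1 the lowest of its own. The markers that the sort did not use thus followed the labels NP and SP, *Six2* more widely than *Foxd1*.

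**Figure D2:**
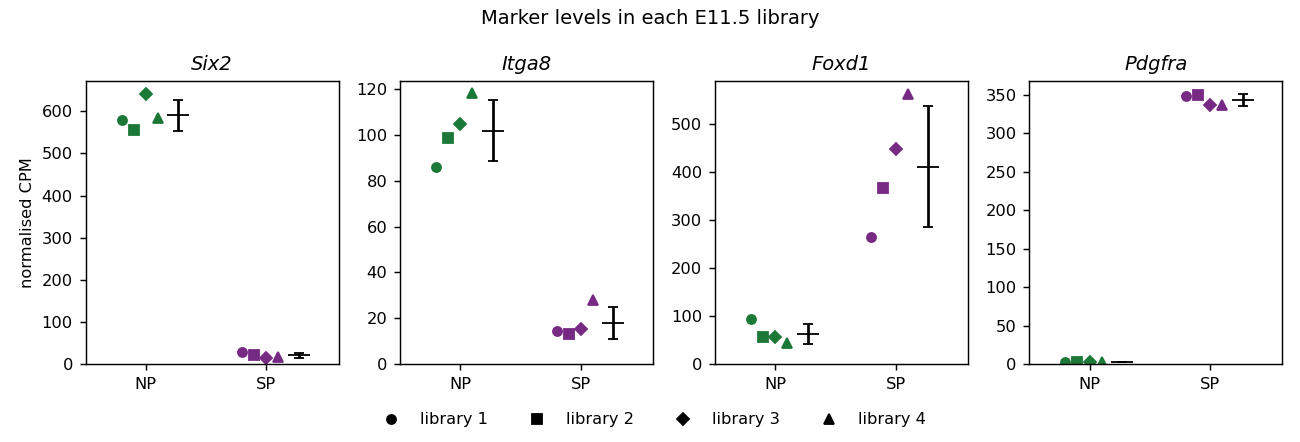
Normalised CPM on a linear axis of the 4 marker genes in each of the 8 libraries, green for NP and purple for SP. Points are libraries, and horizontal lines with bars are group means with SD. In each panel the NP and the SP libraries do not overlap: *Six2* lies between 557 and 641 in NP and between 14.5 and 29.5 in SP, *Foxd1* between 44.3 and 92.9 in NP and between 265 and 563 in SP.

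Transcription factors known from nephron progenitors were mostly higher in NP. Of 14 listed and tested, 11 were called higher in NP, none was called higher in SP, and the median log2 fold change was 1.86 against 0.03 over all genes. Without SP-4 there was 1 call in SP, and without SP-3 and SP-4 there were 2. The largest change was that of *Uncx* (ENSMUSG00000029546, chromosome 5, 139543494 to 139548179, plus strand), a homeobox gene. It was at 375, 398, 426 and 389.8 normalised CPM in the NP libraries and at 2.30, 0.948, 3.89 and 9.47 in the SP libraries. Between the groups *Uncx* had a log2 fold change of 6.54 with a standard error of 0.41 (adjusted p = 2.5e-06). No SP library came near an NP library, and SP-4 was the highest of its group. *Pax2* (ENSMUSG00000004231, chromosome 19, 44756045 to 44837871, plus strand), a paired box factor without which no kidney forms, was at 467, 435, 435 and 544 normalised CPM in the NP libraries and at 6.37, 5.84, 14.9 and 10.1 in the SP libraries. Between the groups *Pax2* had a log2 fold change of 5.59 with a standard error of 0.24 (adjusted p = 2.9e-07). *Eya1*, a partner of Six2 and its relatives, was at 247, 234, 223 and 271 normalised CPM in the NP libraries and at 35.8, 38.7, 23.0 and 16.5 in the SP libraries. Between the groups *Eya1* had a log2 fold change of 3.13 with a standard error of 0.23 (adjusted p = 7e-06). The order of the SP libraries differed between these genes: SP-3 was highest in *Pax2* and SP-2 in *Eya1*. *Sall1*, a zinc finger factor of the progenitors, averaged 307 in NP and 60.3 in SP (log2 fold change 2.35, adjusted p = 3.6e-06). *Wt1*, the zinc finger factor mutated in Wilms tumour, averaged 359 in NP and 137 in SP (log2 fold change 1.38, adjusted p = 2e-06). *Meox1*, a mesoderm homeobox gene, averaged 65.3 in NP and 16.3 in SP (log2 fold change 1.92, adjusted p = 5.6e-06). Even where the change was called, the SP level could be high, as in *Wt1*, whose SP libraries lay at 127 to 147.

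2 further factors of the early mesenchyme were graded among the SP libraries. *Osr1*, an odd-skipped factor of intermediate mesoderm, was at 81.8, 83.4, 83.8 and 89.8 normalised CPM in the NP libraries and at 40.3, 33.4, 22.5 and 10.3 in the SP libraries. Between the groups *Osr1* had a log2 fold change of 1.79 with a standard error of 0.34 (adjusted p = 0.0021). *Cited1*, a co-activator of the uninduced cap, was at 18.4, 30.8, 33.2 and 42.6 normalised CPM in the NP libraries and at 12.1, 8.05, 4.89 and 3.98 in the SP libraries. Between the groups *Cited1* had a log2 fold change of 2.01 with a standard error of 0.33 (adjusted p = 0.00093). In both genes the SP-1 library was the highest of SP and SP-4 the lowest, while for *Cited1* NP-1 was the lowest of NP. *Hoxa11* and *Hoxd11*, which act together in the metanephric mesenchyme, were called with small differences. *Hoxa11* averaged 83.1 in NP and 59.6 in SP (log2 fold change 0.47, adjusted p = 0.0053). *Hoxd11* averaged 187 in NP and 137 in SP (log2 fold change 0.45, adjusted p = 0.0019). Both calls were lost in the fit of all 36 samples, in which all 9 groups share 1 estimate of the spread. *Hoxa11* shares 800 exonic bases with *Hoxa11os* on the opposite strand, whose mean was 34.2 in NP and 31.7 in SP, and whether strand was used in counting is not stated. Among the listed factors not called were *Six4* and *Hoxc11*. *Six4* ranged over 50.7 to 74.0 in NP and 28.5 to 58.9 in SP (log2 fold change 0.44, adjusted p = 0.15). *Hoxc11* ranged over 44.7 to 59.2 in NP and 42.3 to 77.3 in SP (log2 fold change -0.16, adjusted p = 0.54).

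The other genes listed for nephron progenitors were also higher in NP: leaving aside *Itga8*, the gene of the gate, 13 of 13 were called, with a median log2 fold change of 2.33. *Spock2* (ENSMUSG00000058297, chromosome 10, 60106219 to 60135198, plus strand), which encodes the matrix proteoglycan testican-2, was at 629.7, 756, 793 and 786 normalised CPM in NP and at 15.1, 15.3, 22.6 and 24.6 in SP. Between the groups *Spock2* had a log2 fold change of 5.21 with a standard error of 0.16 (adjusted p = 9.1e-08). *Rspo1* (ENSMUSG00000028871, chromosome 4, 124986430 to 125009099, plus strand), a secreted amplifier of Wnt signals, was at 124, 126, 118 and 107 in NP and at 6.24, 3.09, 3.14 and 3.17 in SP. Between the groups *Rspo1* had a log2 fold change of 4.65 with a standard error of 0.18 (adjusted p = 2e-07). *Crym* (ENSMUSG00000030905, chromosome 7, 120186380 to 120202111, minus strand), a thyroid hormone-binding protein, was at 59.5, 129, 139 and 95.4 in NP and at 2.10, 1.99, 2.50 and 3.49 in SP. Between the groups *Crym* had a log2 fold change of 4.87 with a standard error of 0.26 (adjusted p = 8.9e-07). In *Crym* NP-1 was lowest of NP, as it also was in *Spock2*, *Tmem100*, *Fgf20* and *Gas1*, and in SP-1 *Rspo1* was above the other SP libraries. *Phf19*, a Polycomb-associated protein, averaged 96.3 in NP and 8.55 in SP (log2 fold change 3.37, adjusted p = 3.8e-07). *Gas1*, a surface protein that binds Hedgehog and Gdnf-family signals, averaged 833 in NP and 231 in SP (log2 fold change 1.84, adjusted p = 1.3e-05). *Robo2*, the Slit receptor that limits where the bud forms, averaged 508 in NP and 129 in SP (log2 fold change 1.98, adjusted p = 2.5e-06). The 2 genes of this list with the smallest differences were *Gdnf*, at 71.7 in NP and 40.8 in SP (log2 fold change 0.79, adjusted p = 0.0015), and *Ncam1*, an adhesion molecule, at 168 in NP and 87.9 in SP (log2 fold change 0.94, adjusted p = 0.00098).

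Stromal transcription factors went the other way, with 13 of 19 tested called higher in SP, none higher in NP, and a median log2 fold change of -1.33. *Tbx18* (ENSMUSG00000032419, chromosome 9, 87702800 to 87731260, minus strand), a T-box factor known from the mesenchyme of the ureter, was at 3.0005, 1.14, 1.41 and 1.03 normalised CPM in the NP libraries and at 92.1, 127, 102 and 93.6 in the SP libraries. Between the groups *Tbx18* had a log2 fold change of -5.35 with a standard error of 0.21 (adjusted p = 2e-07). *Twist1*, a basic helix-loop-helix factor of mesenchyme, was at 4.09, 2.79, 2.56 and 2.94 normalised CPM in the NP libraries and at 151, 148, 97.5 and 73.0 in the SP libraries. Between the groups *Twist1* had a log2 fold change of -4.80 with a standard error of 0.23 (adjusted p = 5.7e-07). *Ebf1*, an early B-cell factor also found in stroma, was at 1.25, 0.739, 0.725 and 0.513 normalised CPM in the NP libraries and at 29.2, 34.9, 39.8 and 44.1 in the SP libraries. Between the groups *Ebf1* had a log2 fold change of -4.40 with a standard error of 0.17 (adjusted p = 1.6e-07). In these 3 genes all SP libraries were far above all NP libraries, *Twist1* being higher in SP-1 and SP-2 and *Ebf1* in SP-3 and SP-4. *Hic1*, a zinc finger repressor of mesenchymal progenitors, averaged 4.56 in NP and 105 in SP (log2 fold change -4.17, adjusted p = 1.9e-06), and *Tcf21*, a factor of stroma and later podocytes, ranged over 8.61 to 24.0 in NP and 42.6 to 142 in SP (log2 fold change -2.06, adjusted p = 0.0028). *Meis1* averaged 125 in NP and 295 in SP (log2 fold change -1.23, adjusted p = 8.8e-06). *Meis2* averaged 324 in NP and 442 in SP (log2 fold change -0.44, adjusted p = 0.0068). The 2 Meis genes encode TALE partners of Hox proteins, and *Meis1* shares 1029 exonic bases with *Gm37818* on its own strand, whose means were 1.32 in NP and 4.25 in SP. *Prrx1* averaged 62.6 in NP and 204 in SP (log2 fold change -1.61, adjusted p = 0.00063). *Zeb2* averaged 62.7 in NP and 218 in SP (log2 fold change -1.79, adjusted p = 1.1e-06). *Snai2* averaged 21.7 in NP and 57.5 in SP (log2 fold change -1.33, adjusted p = 0.001). *Nr2f1*, an orphan nuclear receptor, averaged 118 in NP and 242 in SP (log2 fold change -1.02, adjusted p = 0.0008). In the fit of all 36 samples the calls of *Meis2* and *Nr2f1* were lost, that of *Meis2* also after a trend with exon length was removed.

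Other listed stromal factors were not called. *Nr2f2* ranged over 334 to 456 in NP and 301 to 362 in SP (log2 fold change 0.27, adjusted p = 0.085). *Foxc1* ranged over 204 to 233 in NP and 213 to 315 in SP (log2 fold change -0.26, adjusted p = 0.11). *Foxc2* ranged over 306 to 365 in NP and 165 to 317 in SP (log2 fold change 0.45, adjusted p = 0.093). *Hoxd10* ranged over 71.9 to 79.5 in NP and 48.2 to 79.0 in SP (log2 fold change 0.24, adjusted p = 0.2). *Osr2* ranged over 3.08 to 9.33 in NP and 2.16 to 9.74 in SP (log2 fold change -0.17, adjusted p = 0.78). *Foxc2* was lower in SP-1 and SP-2 than in SP-3 and SP-4, and in *Osr2* NP-4 was the highest of NP and SP-4 the lowest of SP. Single libraries decided some of these: *Nr2f2* was called higher in NP without NP-1, *Foxc2* higher in NP and *Foxc1* higher in SP without SP-4. *Lhx9*, a LIM homeobox gene, stayed under the minimum for testing, at 0 to 0.0853 in NP and 0.234 to 1.80 in SP.

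Of 17 other stromal genes, leaving aside *Pdgfra*, the gene of the gate, 15 were called higher in SP and 1, *Cdh11*, higher in NP, with a median log2 fold change of -1.89. *Crabp1* (ENSMUSG00000032291, chromosome 9, 54764748 to 54773110, plus strand), which binds retinoic acid in the cytoplasm, was at 7.68, 5.91, 5.37 and 5.74 normalised CPM in the NP libraries and at 197, 189.9, 242 and 297 in the SP libraries. Between the groups *Crabp1* had a log2 fold change of -5.01 with a standard error of 0.16 (adjusted p = 9.1e-08). *Pdgfrb*, the second Pdgf receptor and a marker of pericytes, was at 6.16, 7.15, 6.18 and 5.91 normalised CPM in the NP libraries and at 145, 168, 142 and 158 in the SP libraries. Between the groups *Pdgfrb* had a log2 fold change of -4.39 with a standard error of 0.10 (adjusted p = 8e-09). *Cxcl12*, a chemokine that draws Cxcr4-bearing cells, was at 195, 167, 170.4 and 123 normalised CPM in the NP libraries and at 769, 947, 1127 and 848 in the SP libraries. Between the groups *Cxcl12* had a log2 fold change of -2.49 with a standard error of 0.16 (adjusted p = 2.6e-06). *Pdgfrb* was tight in both groups, while *Crabp1* was highest in SP-4. *Ecm1*, a matrix protein linked to stromal retinoic acid, averaged 2.30 in NP and 84.6 in SP (log2 fold change -4.65, adjusted p = 2.9e-07). *Postn*, the matrix protein periostin, averaged 7.80 in NP and 82.9 in SP (log2 fold change -3.24, adjusted p = 1.2e-06). *Fat4*, a giant cadherin of the stroma that signals to the progenitors, averaged 432 in NP and 818 in SP (log2 fold change -0.87, adjusted p = 0.0071). The call of *Fat4* was lost in the fit of all 36 samples. *Thy1*, a surface marker of fibroblasts, ranged over 0.403 to 0.786 in NP and 8.71 to 55.5 in SP (log2 fold change -3.65, adjusted p = 0.00024) and was highest in SP-4. *Cdh11*, a mesenchymal cadherin, was at 665, 636, 585 and 688 in NP and at 427, 477, 477 and 636 in SP. Between the groups *Cdh11* had a log2 fold change of 0.37 with a standard error of 0.12 (adjusted p = 0.039). Its groups overlapped, and the call was lost under 10 of 18 other settings, among them the omission of any single library but SP-4. *Vcan*, the proteoglycan versican, ranged over 516 to 816 in NP and 504 to 911 in SP (log2 fold change -0.18, adjusted p = 0.49) and was not called.

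The promoters of the markers *Six2* and *Foxd1* follow, with those of *Uncx*, the largest change in NP, and of the collagen gene *Col3a1*, whose values come with the matrix genes, so that genes higher in NP and in SP can be seen side by side. Each is 300 bases from 250 before to 50 after the gene's start, from RefSeq on GRCm38.p6, read 5′ to 3′ on the gene's strand. The RefSeq start lies 0 to 20 bases from the GENCODE start given here for *Six2*, *Foxd1* and *Col3a1*, but 404 bases inside the GENCODE gene for *Uncx*, so that the window of *Uncx* starts after its printed GENCODE start. Capitals mark 3 short motifs searched on both strands, TATAAA (the core of a TATA box), GGGCGG (a GC box of the Sp1 type) and TGACAG (the core bound by Meis-type TALE factors); none of the marked matches overlap. Of all 32851 windows of this length, 13.6% hold TATAAA, 35.7% GGGCGG and 19.2% TGACAG, and of 12476 windows of genes tested here 6.87%, 64.1% and 16.2% do.
Six2, chr17:85688205-85688504, minus strand: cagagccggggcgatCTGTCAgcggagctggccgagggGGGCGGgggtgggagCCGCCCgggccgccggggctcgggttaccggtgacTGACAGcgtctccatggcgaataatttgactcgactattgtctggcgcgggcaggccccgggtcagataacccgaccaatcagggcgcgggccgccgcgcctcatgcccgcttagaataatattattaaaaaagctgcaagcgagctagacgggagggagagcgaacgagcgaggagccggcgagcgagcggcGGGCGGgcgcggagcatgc
Uncx, chr5:139543648-139543947, plus strand: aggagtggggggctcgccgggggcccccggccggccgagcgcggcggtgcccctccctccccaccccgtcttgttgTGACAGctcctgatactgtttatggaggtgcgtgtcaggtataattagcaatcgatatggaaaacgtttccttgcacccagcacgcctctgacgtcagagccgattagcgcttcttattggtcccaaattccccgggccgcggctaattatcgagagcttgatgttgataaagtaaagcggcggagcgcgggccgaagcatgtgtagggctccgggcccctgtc
Foxd1, chr13:98353995-98354294, plus strand: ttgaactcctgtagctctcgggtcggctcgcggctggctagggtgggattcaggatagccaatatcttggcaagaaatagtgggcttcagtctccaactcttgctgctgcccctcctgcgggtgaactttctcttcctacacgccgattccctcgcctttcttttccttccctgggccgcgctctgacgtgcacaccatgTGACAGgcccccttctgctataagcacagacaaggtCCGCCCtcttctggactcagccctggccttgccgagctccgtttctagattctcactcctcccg
Col3a1, chr1:45311288-45311587, plus strand: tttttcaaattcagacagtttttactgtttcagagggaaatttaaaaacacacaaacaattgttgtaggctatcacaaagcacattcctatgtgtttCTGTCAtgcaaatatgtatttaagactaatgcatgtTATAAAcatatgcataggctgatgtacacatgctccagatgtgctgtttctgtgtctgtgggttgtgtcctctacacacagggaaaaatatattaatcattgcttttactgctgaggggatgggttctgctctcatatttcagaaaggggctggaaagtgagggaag

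The windows of *Six2* and *Uncx* hold 37 and 26 CpG dinucleotides and are 67.3% and 60.7% G and C, that of *Foxd1* holds 15 and is 57.7%, and that of *Col3a1* holds none and is 37.7%. The median is 7 CpG over all windows and 21 over those of genes tested. *Six2* holds 3 matches to GGGCGG and 2 to TGACAG, *Foxd1* 1 of each, *Uncx* 1 to TGACAG, and *Col3a1* 1 to TATAAA and 1 to TGACAG. A match is a run of letters and not evidence that a factor binds. Windows were at hand for 9701 of the 13655 genes tested, under the 80% needed for a comparison of called genes with the rest, so none is given.

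Beyond these lists, the largest changes in NP were in genes of varied kinds. *Lmx1b* (ENSMUSG00000038765, chromosome 2, 33560965 to 33640511, minus strand), a LIM homeobox gene known from limb and podocyte, was at 109.5, 85.2, 89.1 and 90.7 normalised CPM in the NP libraries and at 6.64, 1.82, 1.073 and 1.46 in the SP libraries. Between the groups *Lmx1b* had a log2 fold change of 4.86 with a standard error of 0.35 (adjusted p = 5.6e-06). *Espn* (ENSMUSG00000028943, chromosome 4, 152120331 to 152152371, minus strand), which bundles actin filaments, was at 139, 131, 144 and 120.2 normalised CPM in the NP libraries and at 3.24, 2.77, 5.12 and 4.73 in the SP libraries. Between the groups *Espn* had a log2 fold change of 4.78 with a standard error of 0.16 (adjusted p = 1.1e-07). *Slit1* (ENSMUSG00000025020, chromosome 19, 41600257 to 41743665, minus strand), a secreted Robo ligand, was at 40.7, 54.2, 46.1 and 54.3 normalised CPM in the NP libraries and at 0.767, 0.243, 1.71 and 2.50 in the SP libraries. Between the groups *Slit1* had a log2 fold change of 4.53 with a standard error of 0.29 (adjusted p = 2.6e-06). In each of these every NP library was far above every SP library. *Cdh4*, the cadherin of early renal vesicles, was at 26.5, 56.5, 58.3 and 82.9 in NP and at 1.97, 1.24, 1.95 and 1.79 in SP. Between the groups *Cdh4* had a log2 fold change of 4.28 with a standard error of 0.29 (adjusted p = 4e-06). *Hs3st6*, a heparan sulphate sulphotransferase, averaged 29.2 in NP and 0.549 in SP (log2 fold change 4.30, adjusted p = 3e-07). *Cldn9*, a claudin of tight junctions, averaged 32.0 in NP and 0.722 in SP (log2 fold change 4.29, adjusted p = 3.6e-07). *Cdh4* varied most among the NP libraries, being lowest in NP-1 and highest in NP-4.

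Among the largest changes in SP outside the lists above was *Ddr2* (ENSMUSG00000026674, chromosome 1, 169972307 to 170110762, minus strand), a receptor tyrosine kinase that collagen activates. It was at 0.623, 1.175, 0.725 and 1.504 normalised CPM in NP and at 154, 155, 123 and 112 in SP. Between the groups *Ddr2* had a log2 fold change of -6.10 with a standard error of 0.17 (adjusted p = 6.4e-08). *Rgs5* (ENSMUSG00000026678, chromosome 1, 169655501 to 169695813, plus strand), a regulator of G protein signals used as a pericyte marker, was at 4.75, 3.26, 3.20 and 3.38 normalised CPM in the NP libraries and at 145, 155, 224 and 153 in the SP libraries. Between the groups *Rgs5* had a log2 fold change of -5.19 with a standard error of 0.16 (adjusted p = 9.1e-08). *Gata6*, a zinc finger factor of mesoderm and endoderm, was at 6.59, 2.32, 2.43 and 2.94 normalised CPM in the NP libraries and at 103, 127, 111 and 129.5 in the SP libraries. Between the groups *Gata6* had a log2 fold change of -4.78 with a standard error of 0.24 (adjusted p = 7.3e-07). SP-3 stood above the other SP libraries in *Rgs5*, and NP-1 above the other NP libraries in *Gata6*; neither came near the other group. *Piezo2*, a channel opened by mechanical force, averaged 4.44 in NP and 159.5 in SP (log2 fold change -4.86, adjusted p = 3e-07). *Ddr2*, *Gata6*, *Tbx18*, *Itga8* and *Pdgfra* share 90, 93, 970, 372 and 456 exonic bases with non-coding genes on the opposite strand, none of which averaged above 2.67 normalised CPM in NP or SP. For the other genes named here, a partner of the opposite strand averaged over 10% of the gene's own mean in either group for *Mcm7*, *Col4a1*, *Col4a2*, *Fgf2*, *Fgf20*, *Tagln*, *Ccnd1*, *Ccnd3*, *Hoxb2*, *Hoxb5*, *Evx1*, *Hand2* and *Pax9*, and their levels are uncertain if strand was not used in counting. Leaving aside *Itga8* and *Pdgfra*, the calls of all 24 genes circled in the plot of fold change against mean level were the same, in direction and side of the threshold, under the 18 other settings that ask whether a gene changed at all, and all 24 also passed the stricter test against a log2 fold change of 1. Apart from the markers *Six2* and *Foxd1*, these genes were chosen as the largest called changes in these same libraries. For them this outcome was largely set by the choice.

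Matrix genes, the longest list, were mostly higher in SP: of 53 tested, 40 were called higher in SP, 4 higher in NP and 9 were not called, with a median log2 fold change of -1.89. The summed level of the 54 listed genes was 6086 to 6412 normalised CPM in NP and 15941 to 22172 in SP. The largest change of the list was that of *Col3a1*, a fibrillar collagen. *Col3a1* (ENSMUSG00000026043, chromosome 1, 45311538 to 45349706, plus strand) was at 24.7, 24.6, 22.3 and 20.8 normalised CPM in the NP libraries and at 1576, 1797, 2041 and 1735 in the SP libraries. Between the groups *Col3a1* had a log2 fold change of -6.21 with a standard error of 0.10 (adjusted p = 7.6e-10). *Col1a1* was at 97.2, 103, 86.2 and 78.0 normalised CPM in the NP libraries and at 1577, 2308, 3060.0 and 2813 in the SP libraries. Between the groups *Col1a1* had a log2 fold change of -4.69 with a standard error of 0.19 (adjusted p = 2.4e-07). *Col1a2* was at 24.7, 21.3, 22.0 and 18.4 normalised CPM in the NP libraries and at 591, 930.1, 1365 and 1424 in the SP libraries. Between the groups *Col1a2* had a log2 fold change of -5.50 with a standard error of 0.25 (adjusted p = 3.8e-07). The 2 chains of collagen I were lowest in SP-1 in the SP group, and *Col3a1* varied less. The chains of collagen V and VI were also higher in SP. *Col5a1* averaged 123 in NP and 741 in SP (log2 fold change -2.62, adjusted p = 1.7e-05). *Col5a2* averaged 9.95 in NP and 236 in SP (log2 fold change -4.44, adjusted p = 3.6e-07). *Col6a1* averaged 6.22 in NP and 68.3 in SP (log2 fold change -3.17, adjusted p = 1.4e-05). *Col6a2* averaged 5.15 in NP and 67.3 in SP (log2 fold change -3.40, adjusted p = 1.3e-05). *Col6a3* averaged 0.869 in NP and 40.9 in SP (log2 fold change -4.36, adjusted p = 2.2e-05). The collagen VI genes were each lowest in SP-1 and highest in SP-4. *Col12a1* averaged 22.9 in NP and 309.9 in SP (log2 fold change -3.72, adjusted p = 2.6e-06). *Col9a1* averaged 46.5 in NP and 302 in SP (log2 fold change -2.65, adjusted p = 9.4e-06). *Col25a1*, a membrane-bound collagen, averaged 1.33 in NP and 61.2 in SP (log2 fold change -4.73, adjusted p = 2.9e-07).

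Glycoproteins and small proteoglycans of the matrix followed the collagens. *Fn1*, fibronectin, was at 854, 789.6, 725 and 703 normalised CPM in the NP libraries and at 3445, 4991, 4384 and 3616 in the SP libraries. Between the groups *Fn1* had a log2 fold change of -2.41 with a standard error of 0.13 (adjusted p = 1.3e-06). *Bgn*, the small proteoglycan biglycan, was at 1.01, 1.34, 1.28 and 2.39 normalised CPM in the NP libraries and at 48.8, 70.6, 100.2 and 109.8 in the SP libraries. Between the groups *Bgn* had a log2 fold change of -5.02 with a standard error of 0.26 (adjusted p = 8.2e-07). *Fbn1*, a microfibril protein, averaged 41.5 in NP and 202 in SP (log2 fold change -2.23, adjusted p = 7.9e-06). *Fbln5*, a protein of elastic fibres, averaged 1.57 in NP and 37.8 in SP (log2 fold change -3.90, adjusted p = 3.6e-07). *Emilin1* averaged 35.8 in NP and 261 in SP (log2 fold change -2.75, adjusted p = 2e-05). *Nid1*, a basement membrane linker, averaged 56.6 in NP and 301 in SP (log2 fold change -2.39, adjusted p = 1.6e-07). Besides *Spock2*, 3 matrix genes were called higher in NP. *Npnt*, nephronectin, the ligand of the integrin that contains Itga8, was at 71.5, 58.8, 61.4 and 48.2 in NP and at 34.7, 25.3, 22.0 and 7.88 in SP. Between the groups *Npnt* had a log2 fold change of 1.53 with a standard error of 0.36 (adjusted p = 0.0075). *Col13a1* averaged 11.3 in NP and 5.47 in SP (log2 fold change 0.92, adjusted p = 0.0009). *Col4a2*, a chain of basement membrane collagen, averaged 265 in NP and 202 in SP (log2 fold change 0.40, adjusted p = 0.026). The call of *Col4a2* was lost under 4 of 18 other settings, among them the omission of NP-2, NP-3 or NP-4. The partner chain *Col4a1*, at 328 to 372 in NP and 200.4 to 336 in SP (log2 fold change 0.24, adjusted p = 0.26), was not called, nor was *Hspg2*, perlecan, at 259.9 to 339 in NP and 171 to 342 in SP (log2 fold change 0.12, adjusted p = 0.67). *Col2a1* ranged over 320.4 to 362 in NP and 207 to 582 in SP (log2 fold change -0.24, adjusted p = 0.51). *Col11a2* ranged over 2.39 to 8.38 in NP and 0.338 to 16.05 in SP (log2 fold change 0.14, adjusted p = 0.9), the latter with SP-1 and SP-2 above SP-3 and SP-4. Without SP-4 *Col2a1* was called higher in SP, and *Col11a2* was called in opposite directions without SP-3 and SP-4 (log2 fold change -1.30) and without SP-1 and SP-2 (1.57).

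Signals between bud and mesenchyme were called in both directions. Of 24 tested genes of the Gdnf, Fgf and Slit group, leaving aside *Ret*, a gene of the exclusion gate, 11 were called higher in NP and 6 higher in SP, with a median log2 fold change of 0.39 (0.20 without SP-3 and SP-4). *Gdnf*, the ligand that draws the bud, was at 88.0, 65.7, 74.5 and 58.7 normalised CPM in NP and at 37.2, 46.3, 35.5 and 44.1 in SP. Between the groups *Gdnf* had a log2 fold change of 0.79 with a standard error of 0.14 (adjusted p = 0.0015). The groups did not overlap, but the SP libraries were above the limit of detection, and in the fit of all 36 samples the call was lost (adjusted p = 0.16). *Fgf10* averaged 56.2 in NP and 18.2 in SP (log2 fold change 1.56, adjusted p = 1.5e-05). *Fgf20*, which keeps progenitors alive together with Fgf9, averaged 12.3 in NP and 0.702 in SP (log2 fold change 2.81, adjusted p = 0.00026). *Fgf9* averaged 2.64 in NP and 0.327 in SP (log2 fold change 1.42, adjusted p = 0.00029). *Fgf8*, of early nephrons, averaged 8.13 in NP and 0.280 in SP (log2 fold change 2.79, adjusted p = 5e-06). *Fgf2* was the Fgf ligand called higher in SP, at 2.09 in NP and 6.44 in SP (log2 fold change -1.29, adjusted p = 0.00029), and *Fgf18* ranged over 7.11 to 23.0 in NP and 14.2 to 16.2 in SP (log2 fold change -0.30, adjusted p = 0.41) without a call, which it gained without NP-1. Of the receptors, *Gfra1*, the Gdnf co-receptor, averaged 139 in NP and 21.4 in SP (log2 fold change 2.69, adjusted p = 9.3e-06). *Fgfr1* averaged 721 in NP and 518 in SP (log2 fold change 0.47, adjusted p = 0.0024). *Fgfr3* averaged 27.9 in NP and 77.8 in SP (log2 fold change -1.43, adjusted p = 0.01). *Fgfr3* was higher in SP-1 and SP-2 than in SP-3 and SP-4, and without SP-1 and SP-2 its adjusted p was 0.053. The feedback inhibitors *Spry2*, at 26.0 in NP and 77.9 in SP (log2 fold change -1.55, adjusted p = 1e-06), *Spry4*, at 6.08 in NP and 29.1 in SP (log2 fold change -2.09, adjusted p = 7e-06), and *Dusp6*, at 38.1 in NP and 126 in SP (log2 fold change -1.70, adjusted p = 8.2e-06), were called higher in SP, while the Fgf target *Etv4*, at 135 in NP and 47.5 in SP (log2 fold change 1.599, adjusted p = 0.0014), was called higher in NP and *Spry1*, at 55.4 to 80.2 in NP and 52.0 to 75.1 in SP (log2 fold change 0.09, adjusted p = 0.64), was not called. *Slit2*, at 118 in NP and 69.1 in SP (log2 fold change 0.78, adjusted p = 0.001), was called higher in NP and *Slit3*, at 47.7 in NP and 124 in SP (log2 fold change -1.28, adjusted p = 0.002), higher in SP.

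Of 28 tested genes of the Bmp group, 3 were called higher in NP and 16 higher in SP, with a median log2 fold change of -0.59. The 16 calls became 10 without NP-2. Among the ligands, *Bmp7*, which keeps the progenitors alive, was at 183, 174, 164 and 171 in NP and at 44.3, 35.3, 30.8 and 17.9 in SP. Between the groups *Bmp7* had a log2 fold change of 2.46 with a standard error of 0.22 (adjusted p = 2.3e-05). *Bmp4*, a ligand of the mesenchyme around the ureter, was at 16.1, 17.9, 14.5 and 16.1 in NP and at 89.2, 79.1, 41.4 and 29.8 in SP. Between the groups *Bmp4* had a log2 fold change of -1.69 with a standard error of 0.31 (adjusted p = 0.0017). *Bmp5* averaged 1.28 in NP and 26.3 in SP (log2 fold change -3.58, adjusted p = 2.9e-07). The ligands thus took both sides, *Bmp7* and *Gdf11* with NP, and *Bmp4* and *Bmp5* with SP, with SP-1 and SP-2 highest in *Bmp4*. *Gdf11* averaged 95.0 in NP and 60.6 in SP (log2 fold change 0.64, adjusted p = 0.00021). The type II receptor *Acvr2b* was the other call in NP, at 51.1 in NP and 29.2 in SP (log2 fold change 0.82, adjusted p = 0.0027), whereas *Bmpr1b*, at 5.29 in NP and 10.7 in SP (log2 fold change -0.91, adjusted p = 0.0011), was higher in SP and *Bmpr1a*, at 281 to 322 in NP and 306 to 402 in SP (log2 fold change -0.21, adjusted p = 0.11), was not called. Of the antagonists and modulators, *Fstl1*, a secreted follistatin-like protein, was at 135, 146, 141 and 139 in NP and at 819, 949, 1029.7 and 1139.7 in SP (log2 fold change -2.79, standard error 0.10, adjusted p = 1.6e-07), and *Chrd*, chordin, averaged 4.15 in NP and 12.8 in SP (log2 fold change -1.497, adjusted p = 0.0032). *Grem1*, the antagonist that lets the bud branch, ranged over 11.8 to 36.8 in NP and 23.9 to 72.9 in SP (log2 fold change -0.998, adjusted p = 0.076), higher in SP-1 and SP-2 than in SP-3 and SP-4, and was not called. Of the Id genes, which Bmp signals induce, *Id3* averaged 185 in NP and 301 in SP (log2 fold change -0.70, adjusted p = 0.0074) and *Id1* ranged over 47.5 to 117 in NP and 71.2 to 140.4 in SP (log2 fold change -0.43, adjusted p = 0.3). Of the genes without a call, *Bmpr1a* gained one without SP-2, *Id1* without NP-4, and *Grem1* without NP-1 or without SP-4, each higher in SP.

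Wnt genes had 8 calls in NP and 25 in SP among 43 tested, with a median log2 fold change of -0.72, and in the fit of all 36 samples the 8 calls became 5. *Wnt4*, the signal that turns progenitors into epithelium, was at 104, 143, 135 and 176 in NP and at 29.9, 22.2, 22.6 and 18.9 in SP. Between the groups *Wnt4* had a log2 fold change of 2.52 with a standard error of 0.18 (adjusted p = 4.5e-06). *Wnt5a*, a non-canonical ligand, was at 15.3, 4.77, 6.35 and 3.21 in NP and at 68.9, 72.1, 35.4 and 31.9 in SP. Between the groups *Wnt5a* had a log2 fold change of -2.76 with a standard error of 0.42 (adjusted p = 0.00059). *Wnt11*, a ligand of bud tips and also of mesenchyme, was at 18.1, 7.39, 7.33 and 4.85 in NP and at 161, 143, 101 and 74.5 in SP. Between the groups *Wnt11* had a log2 fold change of -3.62 with a standard error of 0.36 (adjusted p = 3.8e-05). *Wnt4* was the 1 gene named as a Wnt ligand that was called higher in NP; of the R-spondins, *Rspo1*, given above, had the largest change of the list, and *Rspo3*, at 44.8 in NP and 30.7 in SP (log2 fold change 0.54, adjusted p = 0.0066), was also called higher in NP, a call lost in the fit of all 36 samples. The third tested, *Rspo2*, averaged 0.445 in NP and 2.80 in SP (log2 fold change -1.37, adjusted p = 0.0002). In *Wnt5a* and *Wnt11* NP-1 was the highest of the NP libraries and SP-1 and SP-2 were the highest of SP. *Wnt2b* averaged 0.528 in NP and 6.07 in SP (log2 fold change -2.20, adjusted p = 4.4e-06). *Wnt5b* averaged 15.8 in NP and 30.6 in SP (log2 fold change -0.91, adjusted p = 0.00074). Of the receptors, *Ror1*, a receptor of Wnt5a, averaged 4.28 in NP and 61.0 in SP (log2 fold change -3.56, adjusted p = 9.5e-08). *Fzd1* averaged 143 in NP and 517 in SP (log2 fold change -1.88, adjusted p = 4e-05). *Fzd4* averaged 205 in NP and 93.0 in SP (log2 fold change 1.13, adjusted p = 0.00019). *Lgr6*, an R-spondin receptor, averaged 9.64 in NP and 1.37 in SP (log2 fold change 2.14, adjusted p = 0.00039). *Fzd2*, at 182 to 206 in NP and 186 to 209 in SP (log2 fold change -0.0011, adjusted p = 0.99), and *Lrp5*, at 110.4 to 124 in NP and 103 to 129 in SP (log2 fold change -0.01, adjusted p = 0.93), were not called. Of 8 tested antagonists of the Sfrp, Dkk and Wif kinds, 7 were called higher in SP, among them *Sfrp1* at 33.8 in NP and 226 in SP (log2 fold change -2.71, adjusted p = 9.1e-08), *Dkk1* at 0.311 in NP and 13.1 in SP (log2 fold change -3.40, adjusted p = 7.3e-07), *Dkk3* at 4.60 in NP and 18.4 in SP (log2 fold change -1.75, adjusted p = 7.4e-05) and *Wif1* at 0.457 in NP and 3.16 in SP (log2 fold change -1.49, adjusted p = 0.0003), and 1, *Frzb*, at 31.7 to 42.8 in NP and 22.7 to 43.9 in SP (log2 fold change 0.09, adjusted p = 0.75), was not called. Of the 7, *Sfrp2* lost its call without SP-3 and SP-4 (adjusted p = 0.15) and *Dkk2* without SP-1 and SP-2 (adjusted p = 0.1). *Axin2*, a target of canonical Wnt signals, ranged over 23.4 to 30.7 in NP and 32.3 to 71.3 in SP (log2 fold change -0.75, adjusted p = 0.035), and its call was lost under 7 of 18 other settings, among them the omission of any NP library, of SP-1 or of SP-2.

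Retinoic acid genes were called higher in SP in 10 of 16 tested and higher in NP in none (1 without SP-1), with a median log2 fold change of -0.69. *Aldh1a2*, the main enzyme of retinoic acid synthesis in the embryo, was at 205, 225, 222 and 230.3 in NP and at 664, 605, 784 and 983 in SP. Between the groups *Aldh1a2* had a log2 fold change of -1.76 with a standard error of 0.14 (adjusted p = 1.1e-05). *Rarg*, a retinoic acid receptor, was at 5.85, 4.36, 4.26 and 3.45 in NP and at 97.7, 122, 104 and 107 in SP. Between the groups *Rarg* had a log2 fold change of -4.32 with a standard error of 0.14 (adjusted p = 9.5e-08). The enzyme was well detected in both groups, and the receptor mainly in SP. *Rarb* averaged 29.5 in NP and 95.6 in SP (log2 fold change -1.67, adjusted p = 2.7e-06). *Rxra* averaged 59.2 in NP and 164 in SP (log2 fold change -1.49, adjusted p = 0.00019). *Stra6*, the receptor that takes up retinol, averaged 79.6 in NP and 132 in SP (log2 fold change -0.72, adjusted p = 0.0018). *Rarb* shares 1793 exonic bases with *Top2b* on the opposite strand, whose means were 360 in NP and 398 in SP, so its level is uncertain unless strand was used. *Rdh10*, which makes retinal from retinol, ranged over 270.5 to 329.7 in NP and 184 to 327 in SP (log2 fold change 0.29, adjusted p = 0.18). *Crabp2* ranged over 123 to 151 in NP and 140.3 to 198 in SP (log2 fold change -0.19, adjusted p = 0.22). *Cyp26b1*, which breaks retinoic acid down, ranged over 1.95 to 18.1 in NP and 4.34 to 15.8 in SP (log2 fold change -0.27, adjusted p = 0.72); none of these was called, although *Rdh10* was, higher in NP, without SP-1.

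Hedgehog, Pdgf and Notch genes had 8 calls in NP and 13 in SP among 28 tested beside *Pdgfra*, with a median log2 fold change of -0.30. The 3 Hedgehog ligands were at most 0.486 normalised CPM in any of the 8 libraries and were not tested. *Gli1*, a target and effector of Hedgehog signals, was at 42.3, 12.02, 10.1 and 7.73 in NP and at 184, 183, 59.0 and 42.9 in SP. Between the groups *Gli1* had a log2 fold change of -2.67 with a standard error of 0.60 (adjusted p = 0.0055). NP-1 was the highest of NP and SP-1 and SP-2 were far above SP-3 and SP-4, and the log2 fold change lay between -3.60 without SP-3 and SP-4 and -1.75 without SP-1 and SP-2. The receptor *Ptch1*, also a target, ranged over 123 to 199 in NP and 81.8 to 214 in SP (log2 fold change -0.01, adjusted p = 0.99) and was not called, while the co-receptors *Cdon*, at 109.6 in NP and 42.1 in SP (log2 fold change 1.38, adjusted p = 8e-05), and *Boc*, at 39.7 in NP and 125 in SP (log2 fold change -1.63, adjusted p = 1.8e-06), were called in opposite directions. Of the Pdgf ligands, *Pdgfa* averaged 74.7 in NP and 30.7 in SP (log2 fold change 1.25, adjusted p = 2e-05). *Pdgfc* averaged 254 in NP and 122 in SP (log2 fold change 1.08, adjusted p = 0.00048), while *Pdgfb* averaged 6.12 in NP and 21.0 in SP (log2 fold change -1.65, adjusted p = 0.0018). *Pdgfd* averaged 0.529 in NP and 2.89 in SP (log2 fold change -1.33, adjusted p = 0.00016). The receptor gene that no gate used, *Pdgfrb*, was higher in SP, as given above. *Notch2* averaged 462 in NP and 259 in SP (log2 fold change 0.84, adjusted p = 0.00053). *Notch3*, a receptor of pericytes, averaged 82.4 in NP and 282 in SP (log2 fold change -1.75, adjusted p = 6.4e-05). *Hes1*, a Notch target, ranged over 49.4 to 192 in NP and 55.7 to 272 in SP (log2 fold change -0.07, adjusted p = 0.93), overlapping between the groups, and *Heyl*, another target, averaged 83.8 in NP and 25.3 in SP (log2 fold change 1.79, adjusted p = 0.00068).

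Adhesion genes were called in both directions, 5 higher in NP and 14 higher in SP among 29 tested beside *Itga8*, with a median log2 fold change of -0.54. *Cdh2*, N-cadherin, averaged 255 in NP and 192 in SP (log2 fold change 0.41, adjusted p = 0.0023), a call lost in the fit of all 36 samples, and *Cdh6* averaged 13.5 in NP and 39.4 in SP (log2 fold change -1.497, adjusted p = 7.5e-05). Of the integrins, *Itgb8* averaged 7.41 in NP and 35.0 in SP (log2 fold change -2.07, adjusted p = 1.6e-05). *Itgav* averaged 163 in NP and 443 in SP (log2 fold change -1.43, adjusted p = 2.8e-05). *Itga5*, the fibronectin receptor, averaged 119.9 in NP and 327 in SP (log2 fold change -1.45, adjusted p = 4.2e-06). *Itgb1*, the partner of Itga8, averaged 397 in NP and 761 in SP (log2 fold change -0.93, adjusted p = 7.7e-05). The partner chain was thus higher in SP although *Itga8* was higher in NP. Of the laminins, *Lama2*, a chain of muscle and mesenchyme, was at 4.68, 3.46, 3.33 and 5.16 in NP and at 79.8, 125, 111 and 90.6 in SP. Between the groups *Lama2* had a log2 fold change of -4.31 with a standard error of 0.17 (adjusted p = 2e-07). *Lama5*, a chain of epithelial basement membranes, was at 196, 118, 106 and 104 in NP and at 73.4, 57.8, 42.7 and 14.0 in SP. Between the groups *Lama5* had a log2 fold change of 1.63 with a standard error of 0.44 (adjusted p = 0.015). The 2 chains went opposite ways, *Lama5* being highest in NP-1 and lowest in SP-4, while *Lamb1*, at 255 to 334 in NP and 289.5 to 367 in SP (log2 fold change -0.19, adjusted p = 0.2), and *Lamc1*, at 214 to 357 in NP and 234 to 276 in SP (log2 fold change 0.12, adjusted p = 0.52), were not called.

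Guidance genes of the ephrin, semaphorin and netrin families had 5 calls in NP and 26 in SP among 46 tested, with a median log2 fold change of -0.66. *Epha7* averaged 31.5 in NP and 145 in SP (log2 fold change -2.16, adjusted p = 2e-06). *Epha3* averaged 0.842 in NP and 18.3 in SP (log2 fold change -3.43, adjusted p = 3e-06). These are Eph receptors, whereas the ligand *Efna1* averaged 37.8 in NP and 7.43 in SP (log2 fold change 2.22, adjusted p = 9.3e-06). *Sema6a*, a membrane-bound semaphorin, was at 44.1, 31.6, 31.8 and 30.4 in NP and at 298, 403, 270.2 and 185 in SP. Between the groups *Sema6a* had a log2 fold change of -2.99 with a standard error of 0.22 (adjusted p = 5.6e-06). *Sema3d*, a secreted semaphorin, was at 45.8, 51.4, 45.8 and 60.6 in NP and at 12.4, 12.9, 20.5 and 33.0 in SP. Between the groups *Sema3d* had a log2 fold change of 1.42 with a standard error of 0.27 (adjusted p = 0.0023). The families were therefore not of 1 direction: *Sema3f*, at 139 in NP and 57.3 in SP (log2 fold change 1.33, adjusted p = 0.0014), went with NP and *Sema3c*, at 31.7 in NP and 92.2 in SP (log2 fold change -1.498, adjusted p = 2.8e-05), with SP. *Plxna4* averaged 19.9 in NP and 3.95 in SP (log2 fold change 2.08, adjusted p = 8.2e-05). *Plxna2* averaged 25.8 in NP and 155 in SP (log2 fold change -2.39, adjusted p = 0.00051). Both encode semaphorin receptors. *Ntn1*, netrin 1, averaged 23.1 in NP and 130.3 in SP (log2 fold change -2.39, adjusted p = 0.00023).

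**Figure D3:**
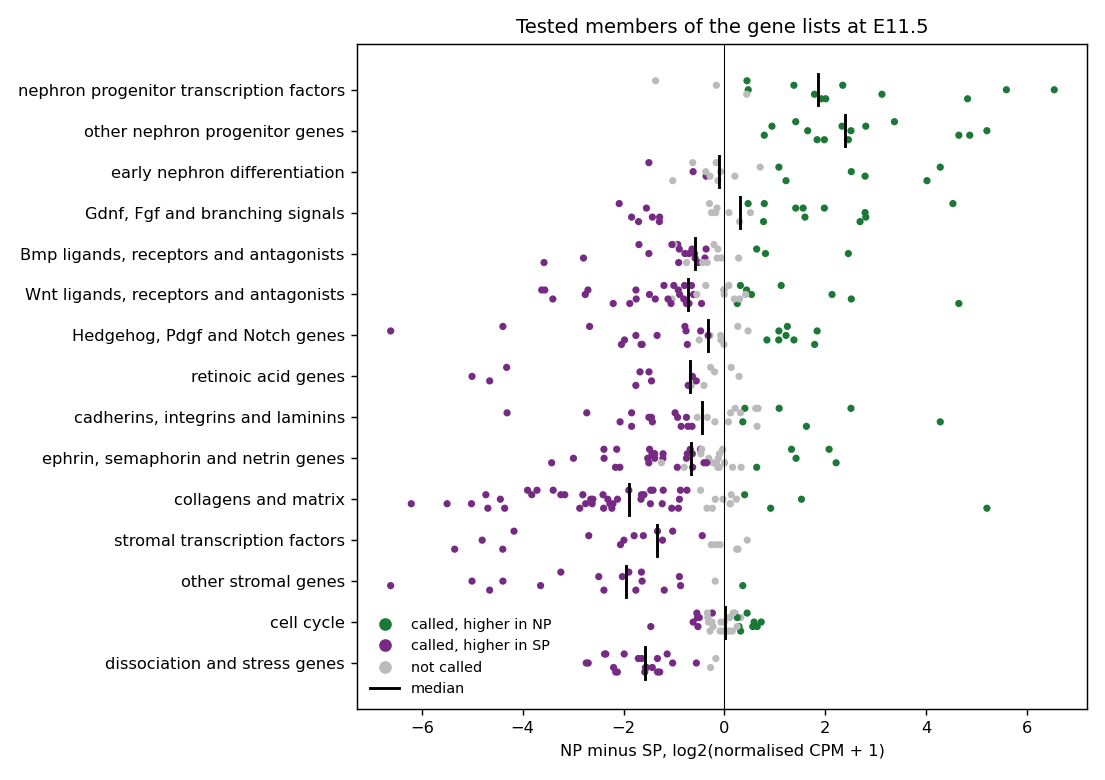
Log2 fold changes of NP against SP for the tested members of the gene lists, gate genes included, 1 row of points for each list, with called genes in colour (green higher in NP, purple higher in SP), genes not called in grey, and a black bar at the median of each list. Medians run from -1.96 for the other stromal genes to 1.86 and 2.40 for the 2 nephron progenitor lists, beside 0.03 over all genes. The Hox genes and the markers of other cells are not drawn.

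Genes of early nephron formation were called in both directions. Of 18 tested, 6 were called higher in NP and 3 higher in SP, with a median log2 fold change of -0.10, a sign that changed when NP-1, SP-3 or either pair of SP libraries was left out. The 9 genes called were 50% of those tested, beside 43.1% over all genes. *Pax8*, a paired box factor of induced cells, was at 13.4, 29.6, 21.0 and 60.7 normalised CPM in NP and at 0.300, 0.389, 1.43 and 0.962 in SP. Between the groups *Pax8* had a log2 fold change of 4.02 with a standard error of 0.40 (adjusted p = 4.2e-05). *Lhx1*, a LIM homeobox factor of the renal vesicle, was at 0.117, 2.12, 1.71 and 10.9 in NP and at 1.27, 0.608, 1.63 and 0.624 in SP. Between the groups *Lhx1* had a log2 fold change of 0.71 with a standard error of 0.58 (adjusted p = 0.36). NP-4 was the highest and NP-1 the lowest NP library in both genes, as also in *Wnt4*, *Fgf8*, *Cdh4*, *Jag1* and *Hey1*. *Hey1*, a Notch target whose call was lost under 5 of 18 other settings, among them the omission of NP-2, NP-3, NP-4 or SP-1, ranged over 49.0 to 148 in NP and 35.3 to 62.3 in SP (log2 fold change 1.08, adjusted p = 0.02). *Jag1*, a Notch ligand, ranged over 29.8 to 69.7 in NP and 48.2 to 65.9 in SP (log2 fold change -0.28, adjusted p = 0.34). *Irx3* ranged over 1.91 to 4.25 in NP and 0.962 to 29.1 in SP (log2 fold change -1.02, adjusted p = 0.28) with SP-1 highest, and *Irx1* over 0.403 to 1.21 in NP and 0.650 to 3.804 in SP (log2 fold change -0.63, adjusted p = 0.12). The 3 calls in SP were *Ccnd1*, at 138 in NP and 213 in SP (log2 fold change -0.62, adjusted p = 0.0045), *Cdh6*, given above, and *Bmper*, a Bmp modulator, at 86.5 in NP and 113 in SP (log2 fold change -0.36, adjusted p = 0.044), the last lost under 13 of 18 other settings, among them the omission of any single library but SP-1. Without SP-4 *Irx1* and *Irx3* were called higher in SP as well, and without SP-3 and SP-4 the 3 calls became 5.

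Hox genes, whose 4 clusters lie on different chromosomes and set position along the body axis, are described by cluster; whether the clusters differ was not tested. Of 36 tested, 13 were called higher in NP and 6 higher in SP, with a median log2 fold change of 0.30, and without SP-3 and SP-4 the 6 calls became 10. The 19 genes called were 52.8% of those tested, beside 43.1% over all genes. In the Hoxb cluster 7 of 9 were called higher in NP and none higher in SP, with a median of 1.25; in the Hoxa cluster 2 of 11 were called higher in NP and 5 higher in SP, with a median of -0.79. The Hoxc and Hoxd clusters each had 2 calls in NP, Hoxd 1 in SP, and medians of 0.02 and 0.31. *Hoxb1* was at 39.8, 29.2, 26.0 and 15.1 normalised CPM in the NP libraries and at 1.10, 0.486, 0.636 and 1.12 in the SP libraries. Between the groups *Hoxb1* had a log2 fold change of 3.90 with a standard error of 0.26 (adjusted p = 3.6e-06). *Hoxb2* was at 96.8, 81.6, 87.2 and 69.2 normalised CPM in the NP libraries and at 33.5, 27.2, 29.6 and 29.8 in the SP libraries. Between the groups *Hoxb2* had a log2 fold change of 1.44 with a standard error of 0.12 (adjusted p = 1.1e-05). *Hoxb9* was at 376, 274, 281 and 265 normalised CPM in the NP libraries and at 217, 149, 86.2 and 50.4 in the SP libraries. Between the groups *Hoxb9* had a log2 fold change of 1.43 with a standard error of 0.38 (adjusted p = 0.013). *Hoxb1*, the first gene of its cluster, was thus near the minimum for testing in SP, while in *Hoxb9* SP-1 was highest and SP-4 lowest. *Hoxb5* averaged 63.3 in NP and 27.1 in SP (log2 fold change 1.25, adjusted p = 0.0016). *Hoxb6* averaged 56.7 in NP and 29.1 in SP (log2 fold change 1.03, adjusted p = 0.011). *Hoxb8* averaged 45.4 in NP and 15.5 in SP (log2 fold change 1.602, adjusted p = 0.002), and *Hoxb7* ranged over 8.86 to 13.6 in NP and 4.37 to 10.4 in SP (log2 fold change 0.49, adjusted p = 0.11) without a call. *Hoxa3* averaged 24.9 in NP and 45.6 in SP (log2 fold change -0.84, adjusted p = 0.0025). *Hoxa4* averaged 7.41 in NP and 13.4 in SP (log2 fold change -0.79, adjusted p = 0.0077). *Hoxa5* averaged 30.1 in NP and 69.9 in SP (log2 fold change -1.08, adjusted p = 0.027), while *Hoxa9* averaged 93.0 in NP and 66.9 in SP (log2 fold change 0.49, adjusted p = 0.028). The call of *Hoxa5* was lost under 7 of 18 other settings, among them the omission of NP-2, NP-3, NP-4, SP-1 or SP-2, and that of *Hoxa9* under 6, among them the omission of NP-1, NP-2, NP-3 or SP-3. Without SP-1 the difference of *Hoxb7* was called.

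The last genes of the Hoxa and Hoxd clusters, which are known from the hindmost body and the limb, gave the largest SP changes of the family, with sizes that depended on which SP libraries were kept. *Hoxa13* was at 0.234, 0.134, 0.213 and 0.0684 normalised CPM in the NP libraries and at 27.1, 19.5, 4.81 and 1.27 in the SP libraries. Between the groups *Hoxa13* had a log2 fold change of -3.01 with a standard error of 0.67 (adjusted p = 0.0055). *Hoxd13* was at 4.48, 2.32, 2.86 and 2.39 normalised CPM in the NP libraries and at 176, 124, 42.1 and 26.8 in the SP libraries. Between the groups *Hoxd13* had a log2 fold change of -4.19 with a standard error of 0.52 (adjusted p = 0.00018). SP-1 and SP-2 were well above SP-3 and SP-4 in both, and no NP library reached the lowest SP library. Without SP-1 and SP-2 the log2 fold changes were -1.65 and -3.14, and without SP-3 and SP-4 they were -4.37 and -5.24. 4 further genes with this pattern, chosen after their values were seen, were *Isl1*, *Evx1*, *Foxf2* and *Hand2*, factors of posterior and visceral mesoderm. *Isl1* was at 94.7, 74.1, 19.3 and 4.73 in SP-1 to SP-4 and 0.581 to 7.95 in NP, and *Evx1* at 41.5, 32.6, 3.65 and 1.09 in SP and 0 to 0.195 in NP. *Foxf2* was at 65.6, 47.3, 9.14 and 2.52 in SP and *Hand2* at 47.9, 32.0, 5.72 and 2.50, against at most 3.0005 and 1.48 in NP. Of the 4, *Isl1* lost its call without SP-1 and SP-2. What sets the pairs of SP libraries apart was not tested.

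**Figure D4:**
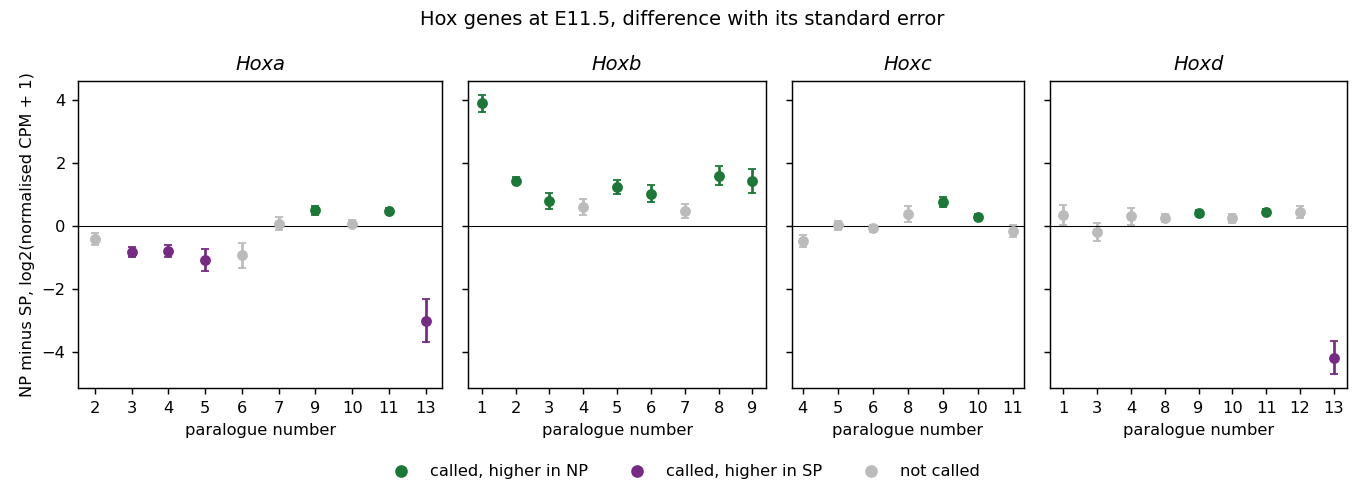
Log2 fold changes of NP against SP with standard errors as bars for tested Hox genes, not all of which are drawn, ordered by number within the 4 clusters; green points were called higher in NP, purple points higher in SP, and grey points were not called. The Hoxb genes lie above 0, from 0.49 to 3.90, and *Hoxa13* and *Hoxd13* lie at -3.01 and -4.19.

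Cell cycle genes were called in both directions: of 34 tested, 9 were called higher in NP and 7 higher in SP, shares near the 21.0% and 22.2% over all genes, and the median log2 fold change of 0.02 changed sign under 6 of the other settings. The 9 calls in NP became 4 without NP-2 or without NP-3, and 5 without NP-4 or without SP-1 and SP-2. Of 6 genes of the replication helicase 5 were called higher in NP, among them *Mcm7* at 532 in NP and 319 in SP (log2 fold change 0.73, adjusted p = 0.00019), *Mcm6* at 509 in NP and 327 in SP (log2 fold change 0.65, adjusted p = 0.0012) and *Mcm2* at 452 in NP and 301 in SP (log2 fold change 0.59, adjusted p = 0.00058), and *Mcm4*, at 449.7 to 517 in NP and 378 to 486 in SP (log2 fold change 0.18, adjusted p = 0.17), was not called but for the omission of SP-4 and 3 other settings. The 3 D cyclins, which drive entry into the cycle, were called higher in SP: *Ccnd1* is given above, *Ccnd2* was at 423 in NP and 601 in SP (log2 fold change -0.50, adjusted p = 0.0035) and *Ccnd3* at 256 in NP and 377 in SP (log2 fold change -0.55, adjusted p = 0.0023); their partner *Cdk6*, at 18.2 in NP and 53.3 in SP (log2 fold change -1.46, adjusted p = 0.00083), was too. The call of *Ccnd2* was lost after a trend with exon length was removed. *Mki67*, the gene of the proliferation antigen Ki-67, was at 256, 84.7, 72.9 and 115.1 in NP and at 270.4, 359, 85.0 and 16.4 in SP. Between the groups *Mki67* had a log2 fold change of 0.09 with a standard error of 0.85 (adjusted p = 0.94). Without SP-3 and SP-4 *Mki67* was called higher in SP (log2 fold change -1.41). *Mki67* varied more within the groups than between them, and so did *Ankrd11*, a chromatin regulator with a long transcript chosen after its values were seen, at 513, 259.9, 206 and 306 in NP and 826, 1114, 286 and 103 in SP. In the tenth of genes with the longest exons the median deviation from the mean of the 8 libraries was 0.12, 0.21, -0.03 and -0.21 (log2) in SP-1 to SP-4 and -0.06 to 0.05 in NP, so that the SP libraries also differed by gene length.

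Genes that cell dissociation is known to induce were higher in SP: 20 of 22 tested were called in that direction, none in the other, with a median log2 fold change of -1.57. Their summed level was 3338 to 3850.1 normalised CPM in NP and 5944 to 6556 in SP. *Fosb* was at 41.3, 20.9, 24.3 and 19.4 normalised CPM in the NP libraries and at 145, 225, 157 and 180.3 in the SP libraries. Between the groups *Fosb* had a log2 fold change of -2.74 with a standard error of 0.23 (adjusted p = 1.3e-05). *Egr1* was at 90.2, 47.3, 54.6 and 70.4 normalised CPM in the NP libraries and at 299, 433, 306 and 317 in the SP libraries. Between the groups *Egr1* had a log2 fold change of -2.38 with a standard error of 0.20 (adjusted p = 1.4e-05). *Klf6* was at 103, 90.7, 99.1 and 91.0 normalised CPM in the NP libraries and at 356, 404, 390.0 and 382 in the SP libraries. Between the groups *Klf6* had a log2 fold change of -1.99 with a standard error of 0.08 (adjusted p = 2e-07). These immediate-early and Krüppel-like factors did not overlap between the groups, and neither did *Klf2*, at 1.85 in NP and 17.9 in SP (log2 fold change -2.70, adjusted p = 3e-06), or *Hspb1*, a small heat shock protein, at 11.5 in NP and 56.3 in SP (log2 fold change -2.20, adjusted p = 2.8e-05). *Hspa1a* and *Hspa1b*, near-identical copies between which reads cannot be assigned with certainty, ranged over 13.3 to 37.1 and 23.5 to 53.9 in NP and 103 to 149.6 and 139 to 204 in SP. Their calls were lost in the fit of all 36 samples. *Jund*, at 871 to 1127 in NP and 1037 to 1379.8 in SP (log2 fold change -0.27, adjusted p = 0.089), and *Hsp90aa1*, at 1263 to 1553 in NP and 1369 to 1803 in SP (log2 fold change -0.17, adjusted p = 0.28), were not called, though *Jund* was without NP-1. Both groups came through dissociation and the same sort, and whether these differences were present in the embryo was not tested.

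Markers of other cells were called higher in SP more often than in NP, at summed levels that ranged widely between the lists. The summed level of 20 UB markers was 93.9 to 104 normalised CPM in NP and 175 to 394 in SP, against 6646 to 6996 in the UB samples titled E11.5, whose labels disagree on their age; of 15 tested beside *Ret* and *Epcam*, 11 were called higher in SP and 1, *Spint2*, higher in NP. *Ret*, a UB gene of the exclusion gate and so no test of it, was at 5.65, 3.89, 5.71 and 2.05 in NP and at 29.1, 20.9, 22.0 and 6.22 in SP, and *Epcam* at 6.74, 10.6, 11.4 and 9.57 in NP and at 15.0, 11.3, 23.4 and 10.01 in SP. SP-3 was the highest SP library in *Epcam*, *Calb1*, *Cdh1*, *Wnt9b* and *Cldn7*, and SP-4 the lowest in *Ret*. *Gata3*, at 1.20 to 12.7 in NP and 17.6 to 56.7 in SP (log2 fold change -3.03, adjusted p = 0.0017), and *Wnt11*, given above, were the markers of this list with the largest sizes of change, and both were higher in SP-1 and SP-2 than in SP-3 and SP-4. Globin RNA varied between libraries: the summed erythroid level was 14.1 to 75.5 in NP and 82.7 to 1582 in SP, with the highest value of each group in NP-4 and SP-4, and 5 of 5 tested erythroid genes were called higher in SP, of which 3 were called without NP-1, without NP-2 or without NP-3. *Hbb-y*, an embryonic globin, was at 6.08, 8.33, 7.12 and 44.4 in NP and at 39.2, 165, 152 and 989.6 in SP. Between the groups *Hbb-y* had a log2 fold change of -3.83 with a standard error of 0.90 (adjusted p = 0.0072). The groups of *Hbb-y* overlapped, SP-1 being below NP-4, as did those of 2 of the other 4 globin genes tested, and the adult globin genes have near-identical copies.

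The 12 macrophage markers all stayed under the minimum for testing, at a summed 0.312 to 1.09 in NP and 1.74 to 3.50 in SP, against 95.5 to 165 in the UB samples. Endothelial markers summed to 20.2 to 55.2 in NP and 37.7 to 75.5 in SP, with 1 call in NP (*Erg*) and 2 in SP (*Flt1* and *Emcn*) among 8 tested. The call of *Erg* was lost under 11 of 17 other settings, among them the omission of any NP library. *Pecam1*, the gene of CD31 and so of the exclusion gate, was at 0.585 to 2.59 in NP and 0.634 to 6.01 in SP. Smooth muscle and pericyte markers summed to 282 to 362 in NP and 399.6 to 530.3 in SP. They had 5 calls in SP and 1 in NP among 6 tested, the latter *Des*, at 282 in NP and 189 in SP (log2 fold change 0.57, adjusted p = 0.00087), which was lost in the fit of all 36 samples; *Tagln*, at 16.4 to 55.0 in NP and 54.7 to 141 in SP (log2 fold change -1.68, adjusted p = 0.0082), and *Acta2*, at 1.68 to 6.43 in NP and 11.2 to 26.3 in SP (log2 fold change -1.83, adjusted p = 0.0018), were among the 5. Neural and crest markers summed to 42.4 to 82.2 in NP and 32.8 to 61.7 in SP, with 1 call in NP and 1 in SP among 4 tested beside *Ret*. *Elavl4*, an RNA-binding protein of neurons, averaged 19.2 in NP and 3.12 in SP (log2 fold change 2.31, adjusted p = 2e-06), and *Stmn2*, a neuronal stathmin, averaged 1.23 in NP and 4.51 in SP (log2 fold change -1.17, adjusted p = 0.02), a call lost without NP-3 or without NP-4, while *Sox10*, the defining factor of crest glia, was at 0.513 to 4.75 in NP and 0.130 to 0.486 in SP and was not tested. Myogenic and paraxial markers summed to 366 to 468 in NP and 445 to 937 in SP. They had 1 call in NP, the paired box gene *Pax9*, at 3.90 in NP and 0.818 in SP (log2 fold change 1.44, adjusted p = 0.0031), and 3 in SP among 5 tested. *Tcf15* averaged 1.11 in NP and 8.497 in SP (log2 fold change -2.16, adjusted p = 2.9e-06). *Sox9*, whose protein the authors used as a marker of UB tips, averaged 61.4 in NP and 275 in SP (log2 fold change -2.20, adjusted p = 7.9e-05). The myogenic factors *Myod1*, *Myf5* and *Myog* were at most 1.30 in any of the 8 libraries. Gonad and adrenal markers summed to 7.15 to 20.0 in NP and 136 to 159 in SP, where *Gata6* made up most of it; *Nr5a1*, the defining factor of those organs, was at most 0.701, and *Gata4* ranged over 0.547 to 5.46 in NP and 2.99 to 13.7 in SP (log2 fold change -1.77, adjusted p = 0.019), a call lost without NP-2, without NP-4 or without SP-1 and SP-2. The part of such cells in the NP and SP differences was not tested.

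The E12.5 samples, from separate litters sorted through the same gates, allow the same comparison at a later age. There 4789 of 13772 genes tested (34.8%) were called between NP and SP. Across 13317 genes tested at both ages the log2 fold changes correlated at 0.90, as a description over genes, which are not independent, and 5489 of the 5719 genes called at E11.5 and tested at E12.5 had the same sign (96.0%). The difference itself, E11.5 minus E12.5, was called in 388 of 14438 genes (2.69%), 157 with a positive and 231 with a negative value, and in 222 genes under a stricter filter, which tests fewer genes. This count rested on single libraries: it was 243 without E11.5 NP-2, 683 without E11.5 SP-4, 855 without E12.5 SP-1 and 240.0 without E12.5 SP-4. Within the lists, 4 of 14 nephron progenitor factors were called, all negative, that is, with a fold change further to the NP side at E12.5. *Six2* averaged 590.2 ± 35.7 in NP and 20.5 ± 6.59 in SP at E11.5 and 591 ± 146 and 3.27 ± 2.55 at E12.5 (SD, n = 4 each), a difference of log2 fold changes of -2.47 (standard error 0.48, adjusted p = 0.01). *Osr1* averaged 84.7 and 26.6 at E11.5 and 114.8 and 6.72 at E12.5, a difference of -2.11 (standard error 0.39, adjusted p = 0.0081). In both genes the mean in SP was lower at E12.5; *Eya1* and *Cited1* were the other 2 called, at -2.76 (standard error 0.49, adjusted p = 0.0066) and -2.01 (standard error 0.42, adjusted p = 0.016). *Lhx1* averaged 3.70 in NP at E11.5 and 28.4 at E12.5, a difference of -3.62 (standard error 0.69, adjusted p = 0.0094), and *Foxd1*, with a difference of 1.03 (standard error 0.31, adjusted p = 0.097), was not called. 7 of 19 UB markers had a called, negative difference, none of 22 dissociation genes did, and of 54 matrix genes 6 were positive and 4 negative.

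The genes named for the smallest p-values of this difference included matrix and secreted proteins. *Col9a1*, a cartilage-type collagen chain, averaged 46.5 in NP and 302 in SP at E11.5 and 34.9 and 33.6 at E12.5, a difference of log2 fold changes of -2.73 (standard error 0.29, adjusted p = 0.00012). *Col6a6*, a collagen VI chain, averaged 0.323 in NP and 7.02 in SP at E11.5 and 0.963 and 71.1 at E12.5, a difference of 2.65 (standard error 0.33, adjusted p = 0.00048). The 2 collagens thus went opposite ways, with a log2 fold change at E12.5 of 0.08 (adjusted p = 0.75) for *Col9a1* and of -5.17 for *Col6a6*. *Dlk1*, an imprinted Notch-like surface protein, averaged 57.6 in NP and 76.0 in SP at E11.5 and 10.1 and 129.8 at E12.5 (difference 3.10, standard error 0.33, adjusted p = 0.00012) and was not called between NP and SP at E11.5 (adjusted p = 0.17). *Bcam*, a laminin-binding adhesion protein, averaged 97.2 in NP and 26.8 in SP at E11.5 and 164 and 7.28 at E12.5 (difference -2.41, standard error 0.30, adjusted p = 0.00044). *Cxcl13*, a chemokine, averaged 0.137 in NP and 2.74 in SP at E11.5 and 0.0782 and 20.2 at E12.5, with a difference of 2.61 (standard error 0.23, adjusted p = 2.3e-05). *Figf*, the growth factor Vegf-D, averaged 0.0780 in NP and 2.29 in SP at E11.5 and 0.180 and 16.9 at E12.5, with a difference of 2.38 (standard error 0.28, adjusted p = 0.00033). Both had means under 1 in NP at either age, and means in SP that were higher at E12.5.

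The ES-derived equivalents, iNP and iSP, were grown from E14 ES cells in embryoid bodies and sorted through the same gates; 4320 of 14052 genes tested (30.7%) were called between them. Over 12999 genes tested in both, the log2 fold changes of the E11.5 and the ES-derived pair correlated at 0.45, and 3736 of the 5555 E11.5 calls tested had the same sign (67.3%). The difference of the 2 contrasts was called in 4344 of 14846 genes (29.3%), 1761 positive and 2583 negative; after quantile normalisation these were 2364 and 2128, and after a trend with exon length was removed, which moved the median over all genes from 0.01 to 0.13, 3419 and 2375. Of the matrix genes 38 of 53 were called, 37 of them negative, that is, with a fold change further to the SP side at E11.5 than in the ES-derived pair. *Col3a1* averaged 23.1 in NP and 1787 in SP, and 298 in iNP and 2205 in iSP, a difference of -3.30 (standard error 0.19, adjusted p = 3.1e-09). *Rgs5* averaged 3.65 in NP and 169 in SP, and 109 in iNP and 57.5 in iSP, a difference of -6.10 (standard error 0.22, adjusted p = 3.5e-11). *Col3a1* kept its direction in the ES-derived pair and *Rgs5* was higher in iNP, as were *Ecm1* (2.30 in NP and 84.6 in SP, and 124 in iNP and 37.5 in iSP), *Ntrk2* (8.66 in NP and 82.6 in SP, and 44.4 in iNP and 8.57 in iSP), *Prss23* and *Ntm*. Of 14 nephron progenitor factors 12 were called, 11 of them positive. *Rspo1* averaged 119 in NP and 3.91 in SP, and 17.6 in iNP and 14.2 in iSP, a difference of 4.36 (standard error 0.25, adjusted p = 3.8e-09). *Lmx1b* averaged 93.7 in NP and 2.75 in SP, and 6.84 in iNP and 10.9 in iSP, a difference of 5.49 (standard error 0.42, adjusted p = 7.8e-08). Of these 2 leading genes of E11.5 NP, *Rspo1* was not called between iNP and iSP (adjusted p = 0.18) and *Lmx1b* was higher in iSP (adjusted p = 0.025), whereas *Six2* (590.2 in NP and 20.5 in SP, and 139 in iNP and 13.4 in iSP) and *Uncx* (397 in NP and 4.15 in SP, and 194 in iNP and 10.96 in iSP) were higher in iNP than in iSP, and *Foxd1* was at 7.08 in iNP and 15.2 in iSP. Of the dissociation genes 20 of 22 were called, all negative.

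**Figure D5:**
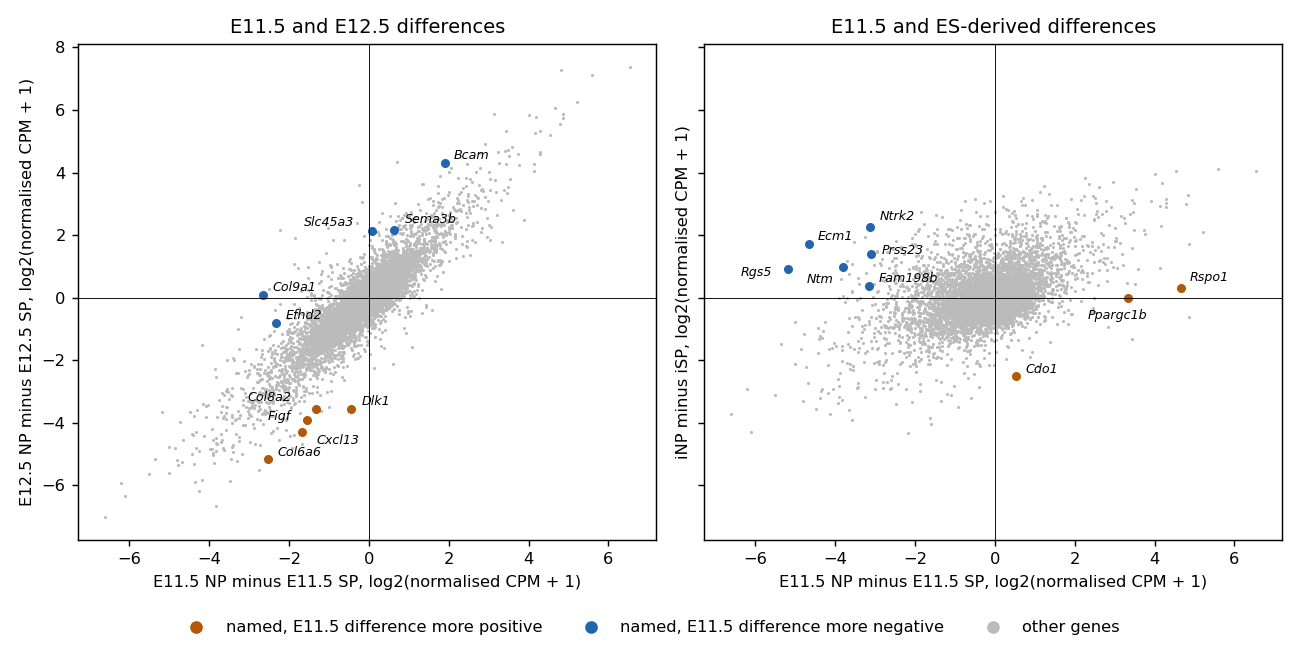
Log2 fold changes of NP against SP at E11.5 on the x axis against those at E12.5 (left) and those of iNP against iSP (right) on the y axis; grey points are genes tested in both, and coloured points are the genes named for the smallest p-values of the difference between the contrasts. The left cloud runs along the diagonal (correlation 0.90) and the right one is wider (0.45), with *Rgs5* at -5.19 and 0.91.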

How the data were processed

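RNA was isolated from sorted cells, turned into stranded mRNA libraries and sequenced from both ends, and the authors trimmed reads with Cutadapt and aligned them with STAR. The methods write the genome as GRCh38, whereas the gene identifiers of the table are mouse Ensembl identifiers; the counting program, its strand setting and the filter of the authors are not given in the sources used here. The deposited table holds CPM that the authors scaled with edgeR, a normalised signal per gene and sample. A second deposited table with the same values also holds means, fold changes, p-values and FDR of the authors' own comparisons, which were not used.

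Values were taken as log2(value + 1). Genes with at least 1 normalised CPM in 4 of the 8 libraries were tested with limma 3.58.1 (R 4.3.3; linear model per group, moderated with a trend, two-sided, Benjamini-Hochberg adjustment over all genes tested, threshold 0.05). The differences from the E12.5 and from the ES-derived contrast were tested in the same way over the 16 libraries of each. 100% of the values came out as whole reads (tolerance 0.01), and edgeR 4.0.16 on these reads called 5863 genes. Fits were tested on simulated data with known changes. Gene positions and exonic overlaps came from GENCODE vM21 (GRCm38), in which 22642 of 22761 identifiers were found. Replicate numbers were not taken as pairs, since nothing ties the NP and SP samples of 1 number together and the correlation of their deviations was not positive for every number. Intervals of depth cover counting error only.

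The members and gene lists were chosen with earlier results of these data known. The genes named were the 4 markers, the 12 protein-coding genes with the largest called change in each direction with a mean of at least 10 in the higher group and no overlap of groups, the called list members with the largest mean or change, and the 6 genes in each direction with the smallest p for each difference between contrasts; further list members were named for their role after their values were seen. Alternatives were another pseudocount (0.1), a stricter and no filter, quantile normalisation, edgeR on the reads, a replicate block, all 36 samples in the fit, a test that asks for a log2 change of over 1, the omission of each library, and, added after the data were seen, the omission of each pair of SP libraries and the removal of a trend with exon length. Some members of the lists are counted in them but not reported by name here.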

Additional observations from a re-analysis of the deposited data

Results flagged for a closer look

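With 4 libraries a group, a library was taken to stand apart when its gap to the nearest other library was, relative to the range of the group, over the critical value of Dixon's test. Over the summed lists and 26 genes, the markers and the 12 largest changes of each direction, 12 of 100 groups held such a library, and chance alone is known to give about 1 in 20. In NP-1 *Rgs5* stood at 4.75 normalised CPM, *Gata6* at 6.59, the summed gonad and adrenal markers at 20.0 and the summed other nephron progenitor genes, where NP-1 was lowest, at 2593. In NP-4 the summed erythroid markers stood at 75.5. In SP-1 *Lmx1b* stood at 6.64 and *Rspo1* at 6.24, and the summed stromal transcription factors were lowest at 3705. In SP-3 *Rgs5* stood at 224 and the summed Bmp genes at 3598. In SP-4 *Itga8*, the gene of the NP gate, stood at 28.1 and the summed erythroid markers at 1582.

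Between E11.5 and E12.5 the NP and SP difference itself was called by limma for the genes that follow, as the log2 fold change at E11.5 minus that at E12.5. It was 3.10 for *Dlk1*, 2.78 for *Trpm5*, 2.65 for *Col6a6*, 2.61 for *Cxcl13*, 2.38 for *Figf* and 2.23 for *Col8a2*. It was -2.73 for *Col9a1*, -2.41 for *Bcam*, -2.38 for *Gad2*, -2.04 for *Slc45a3*, -1.52 for *Sema3b* and -1.50 for *Efhd2*. *Trpm5* shares 220 exonic bases with *Tssc4* on the opposite strand, which averaged 62.6 normalised CPM in NP and 51.0 in SP at E11.5. Between the E11.5 and the ES-derived pair the difference was called for *Rspo1* at 4.36, *Mab21l2* at 3.93, *Ppargc1b* at 3.33, *Pnmt* at 3.23, *Cdo1* at 3.05 and *Rspo4* at 2.99. It was -6.37 for *Ecm1*, -6.10 for *Rgs5*, -5.37 for *Ntrk2*, -4.79 for *Ntm*, -4.50 for *Prss23* and -3.54 for *Fam198b*. *Mab21l2* shares 1097 exonic bases with *Lrba* on the opposite strand, with means of 30.7 in NP and 20.3 in SP. The causes of these differences were not tested.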

How the results depend on the processing

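Gate genes are left out of the counts of named genes and of lists, but not of those over all genes. The other 24 genes that are markers or among the 12 largest changes of a direction kept direction and call under 18 other settings, the test against a log2 fold change of 1 left out. Of 337 called genes that are named or listed, 279 did so under each of these settings in which they were tested, 58 lost the call under at least 1 setting and none reversed. In the test against a log2 fold change of 1, all 24 and 135 of the 337 were called. Apart from *Six2* and *Foxd1*, the 24 were chosen for large changes in the same libraries, so that their result was largely set by the choice. Under it, calls higher in NP and in SP came to 7 and 0 of 14 nephron progenitor factors, 0 and 7 of 19 stromal factors, 6 and 3 of 24 Gdnf, Fgf and Slit genes, 1 and 2 of 28 Bmp genes, 3 and 8 of 43 Wnt genes, 0 and 5 of 16 retinoic acid genes, 1 and 3 of 28 Hedgehog, Pdgf and Notch genes, 1 and 26 of 53 matrix genes, 1 and 4 of 29 adhesion genes, 2 and 8 of 46 guidance genes, 0 and 0 of 34 cell cycle genes, 0 and 10 of 22 dissociation genes, 0 and 2 of 15 UB markers and 2 and 1 of 36 Hox genes. The 5891 calls between NP and SP became 783 (227 higher in NP, 556 higher in SP) when tested against a log2 fold change of 1, 6269 (3586 and 2683) after quantile normalisation, and 6684 (3911 and 2773) after a trend with exon length was removed; without single libraries they were 4717 to 6559. The 388 genes that differed between E11.5 and E12.5 became 222 under the stricter filter and 240.0 to 855 without single libraries. The 4344 that differed from the ES-derived pair were 3782 to 5131 without single libraries. The cause of these shifts was not tested, save that the stricter filter and the test against a fold change ask more of a gene.

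With a replicate block the counts were 5980, 924 and 4223. The deviations of NP and SP libraries of the same number correlated at 0.51, -0.35, 0.38 and 0.28, and not every library correlated best with its own number, so the numbers were not read as pairs.

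The smallest counts limit genes near 1 normalised CPM, and the scale of log2(value + 1) draws their fold changes towards 0. 4 litters a group, a single strain and a sort that selects part of the stroma limit what the groups stand for.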
